A study of Drosophila melanogaster with 2 samples.

Results

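The insc, pins, mira, stau, pon, numb, pros and brat genes, which act in the asymmetric division of Drosophila neuroblasts, were examined in maps of where a Snail-eGFP fusion protein lay on the genome. These 8 genes, out of 13945 protein-coding genes on the 6 main chromosome arms, were chosen by name. A peak or candidate region was counted to a gene where its summit lay within the dm6 gene span extended by 5000 bp on each side. By this rule the genes held 10 of the 4221 peaks and 231 of the 105842 candidate regions of the pooled lists. The maps came from chromatin immunoprecipitation and sequencing of whole Drosophila melanogaster embryos of 0 to 24 h. Both biological replicates came from flies with a sna-eGFP transgene and formed the only group, with no second genotype or treatment. The description of the samples names an antibody against GFP and the antibody field names sna. The labels do not say which promoter drives the transgene, and the control experiment they name was not analysed here. In whole embryos, few cells with a strongly bound site and many cells with a weakly bound one cannot be told apart, and neuroblasts make up an unmeasured share of the cells. The files hold peak lists and no read counts, so depth is unknown.

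Neuroblasts are the neural stem cells of the fly. At each division a neuroblast renews itself and buds off a smaller ganglion mother cell, and proteins that set the daughter's fate are placed at the basal side of the dividing cell. Inscuteable and Pins couple the apical Par complex to the mitotic spindle. Miranda carries the transcription factor Prospero, the translational repressor Brat and the RNA-binding protein Staufen to the basal side, and Pon brings the Notch inhibitor Numb there. Snail-family zinc-finger proteins (Snail, Escargot and Worniu) are known to be needed in neuroblasts for inscuteable expression and for this polarity, and Snail binds E-box sequences with the core CAGGTG.

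Sequences at the sites that the results turn on are given first. All are from the NCBI copy of Release 6 (dm6), 5′ to 3′, without annotated UTR bases. Capitals mark CAGGTG, the Snail core, CAGGTA, the core bound by the zygotic activator Zelda, and CGATA, part of the element TATCGATA that the boundary protein BEAF-32 and the factor DREF bind, each on either strand. The bases before the first brat start site (chr2L:19133518-19133815, plus strand) are shown because they held the strongest peak at the 8 genes. They had no CAGGTG. TATCGATA stood close to the start, outside that peak, and no CGATA lay within 100 bp of the peak's summit. The bases before pon (chrX:4636005-4636230, plus strand) are shown because they carried 7 CGATA matches, overlapping ones included, and 1 CAGGTG. The start of mRpL40, just downstream of pros (chr3R:11407991-11408172, plus strand), is shown because it held 2 CAGGTG matches, and its CAGGTA spanned the end of an annotated exon, where splice donor sites have a like sequence. The brat intron site (chr2L:19165059-19165339, plus strand) is shown because it lay outside every start-site window. The bases before the last of the pros start sites (chr3R:11372692-11372787, plus strand) are shown because that site had a peak and none of these letters.
brat upstream: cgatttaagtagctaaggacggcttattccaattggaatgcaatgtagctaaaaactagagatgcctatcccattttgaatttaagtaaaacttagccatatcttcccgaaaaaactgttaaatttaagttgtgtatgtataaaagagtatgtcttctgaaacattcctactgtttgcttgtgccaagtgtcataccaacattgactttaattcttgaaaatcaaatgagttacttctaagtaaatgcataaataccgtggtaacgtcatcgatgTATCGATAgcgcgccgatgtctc
pon upstream: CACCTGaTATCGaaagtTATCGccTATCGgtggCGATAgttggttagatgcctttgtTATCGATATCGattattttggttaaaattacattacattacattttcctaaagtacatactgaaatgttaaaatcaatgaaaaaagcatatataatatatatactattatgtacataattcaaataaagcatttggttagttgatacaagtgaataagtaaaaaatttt
mRpL40 start: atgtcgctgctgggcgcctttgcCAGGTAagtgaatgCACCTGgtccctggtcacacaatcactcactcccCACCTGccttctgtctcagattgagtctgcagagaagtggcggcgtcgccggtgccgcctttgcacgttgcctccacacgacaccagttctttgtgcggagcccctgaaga
brat intron: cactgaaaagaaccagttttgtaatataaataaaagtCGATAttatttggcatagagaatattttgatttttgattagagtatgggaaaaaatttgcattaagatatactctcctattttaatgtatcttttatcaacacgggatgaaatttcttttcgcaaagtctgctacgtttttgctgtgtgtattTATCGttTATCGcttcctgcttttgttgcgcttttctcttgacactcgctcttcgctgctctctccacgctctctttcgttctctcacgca
pros last start: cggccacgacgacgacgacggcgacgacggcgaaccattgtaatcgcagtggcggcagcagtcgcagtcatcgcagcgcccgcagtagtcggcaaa

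Peaks of the pooled list were found at 5 of the 8 genes (insc, pros, brat, numb and pon), and at none of mira, pins and stau. The same count over all coding genes was 52.7%, so that 5 of 8 is near the background. A peak here is a candidate region in the authors' thresholded list, for which the limit on the irreproducible discovery rate (IDR) is 0.01. A low IDR means that a region's place repeated between the rankings compared for that list. Each replicate's own list also has IDR values, and pooled and replicate-pair values can differ for the same region. A pooled or single-replicate IDR is therefore not read here as agreement between the biological replicates. IDR is given below as −log10, on which the limit is 2 and the highest value 5. Signal is the authors' own value for each region on a scale that no source used here gives, so signals are set side by side only within 1 list. Of these genes 4 (insc, pros, brat and pon) had a peak within 500 bp of one of their own start sites, against 27.5% of coding genes. The 8 genes have 16 start sites, of which pros has 4, and a gene with more start sites has more such windows. The insc start is also that of sktl, and the pon peak lay nearer to the start of Alms1a. At insc, pros, brat and numb a peak had the gene's own start site as the nearest one, against 23.7% of coding genes. In the list made from the replicate pair the same 5 genes had a peak, against 49.9% of coding genes. No test was made of these counts.

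**Figure D1:**
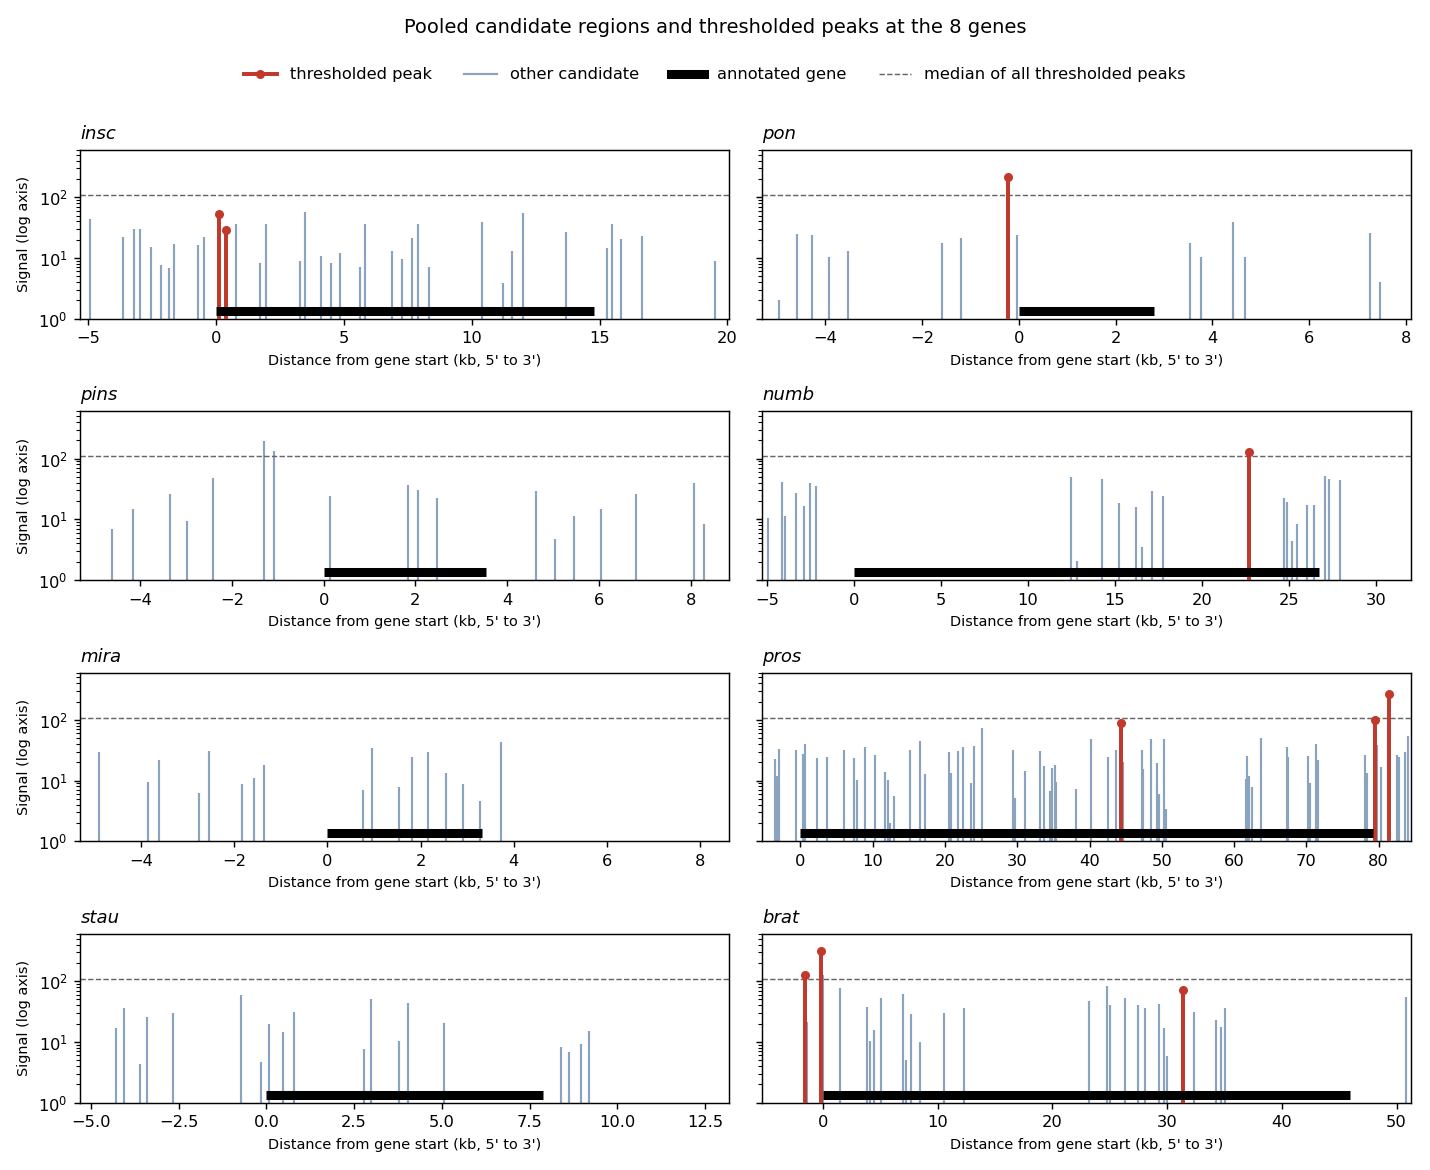
Pooled candidate regions (thin blue lines) and thresholded peaks (thick red lines with a dot) at the 8 genes, by distance of the summit from the gene start in kb along the direction of transcription (x axis) and by the authors' signal (y axis, log scale). The black bar is the annotated gene and the dashed line the median signal of 109 of all thresholded peaks; the tallest lines at pins are 2 candidates of 191 and 131 that were not in the thresholded list.

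The apical adaptor genes had weak or no thresholded peaks. The insc gene, whose product links Bazooka to Pins, spans chr2R:20821262-20836028 on the minus strand. It shares its only annotated start site with sktl, a phosphatidylinositol phosphate kinase gene nested in the same span. Its peak at that start site (chr2R:20835653-20836168) had a signal of 52.8, with the summit 117 bp downstream. A second peak (chr2R:20835362-20835877) had a signal of 29.4, 408 bp downstream, and overlapped the first. Both were among the weakest of the list, at ranks 3751 and 3887 of 4221, while their −log10 IDR values of 2.62 and 2.61 passed the limit. In the replicates' own lists the start site had candidates of 42.5 in replicate 1 and 47.9 in replicate 2, neither kept at the limit. The strongest candidate in the span, at an internal sktl start site, had a higher signal of 56.8 and a −log10 IDR of only 0.17, so that entry to the list did not follow signal alone. With 37 candidates in its extended span, or 1.49 per kb, insc was the densest of the 8 genes, at percentile 92.4 of coding genes.

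The pins gene (chr3R:27582840-27586376, plus strand), which encodes the partner that joins Inscuteable to Gαi and Mud, had no thresholded peak. Its own start site carried a candidate of 23.9 in the pooled list, 21.1 in replicate 1 and 13.6 in replicate 2. The strongest candidate counted to it lay on chr3R:27581291-27581806 with a signal of 191, which was 6 bp upstream of a start site of the divergent neighbour wdb, a regulatory subunit gene of protein phosphatase 2A, and 1291 bp from the pins start. This region ranked 929 in the pooled candidate list with a −log10 IDR of 4.26, past the limit, and had 1 CAGGTG within 100 bp of its summit. Even so it was in none of the thresholded lists. In replicate 1 a region of 121 lay there with a −log10 IDR of 3.60, and in replicate 2 one of 85.5 with 0.68. It was not alone: 139 of the 4360 pooled candidates with an IDR at or under 0.01 (3.19%) were not in the thresholded list. The thresholded summits nearest to it in any list were 10737 bp away on one side and 24098 bp on the other. Per the deposited notes, the thresholded lists were made with 1 more input file than the ranked lists; whether that file removed the region was not tested. With all candidates at or under that IDR counted, a choice made after seeing the data, 6 of 8 genes had one within 5000 bp, against 53.3% of coding genes.

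The Miranda group held both the strongest and the emptiest start sites. The mira gene (chr3R:19931799-19935120, minus strand), which encodes the basal adaptor, had no peak, and no pooled candidate lay within 500 bp of either of its start sites. In replicate 1 there was none there either, and in replicate 2 the strongest was 14.9. The candidate list of replicate 2 is the longer, with 102292 regions against 46847. Its 17 pooled candidates reached 43.4, in an intron of another gene 3720 bp from the mira start. The stau gene (chr2R:18117896-18125779, minus strand), whose product binds prospero RNA, had no peak among its 19 candidates. Its start sites had candidates of up to 19.8 in the pooled list, 10.8 in replicate 1 and 22.9 in replicate 2. The strongest candidate near stau, of 59.7 with a −log10 IDR of 1.69, lay 156 bp inside the divergent serpin gene Spn55B and 724 bp upstream of stau.

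The brat gene, which encodes an NHL-domain repressor of translation and is a brain tumour suppressor, had the strongest peak of the 8 genes and spans chr2L:19133816-19179758 on the plus strand. That peak (chr2L:19133527-19133783) had a signal of 309 and the highest −log10 IDR, 5, ranked 320 of 4221, and had its summit 158 bp upstream of the first brat start. Replicate 1 had 174 there and replicate 2 had 127, and both kept it in their thresholded lists. A candidate of 125 lay 51 bp inside the gene, next to the TATCGATA printed above. Its −log10 IDR was 0.94 in the pooled list and 2.06 in the replicate-pair list, where it counted as a peak. Each replicate's own list also kept a peak at this place. It had 35.2 in replicate 1, 71 bp inside brat, and 68.0 in replicate 2, 59 bp inside. The intron peak (chr2L:19164941-19165456) had a signal of 72.1 and lay 668 bp upstream of an internal brat start. There replicate 1 had 40.7 and replicate 2 had 47.2, neither past the limit. The third peak counted to brat (chr2L:19131967-19132482), of 126, lay 98 bp upstream of DCTN6-p27, a dynactin subunit gene. Replicate 1 had 58.1 there and kept no peak. Replicate 2 kept a peak of 54.8, whose nearest start was that of AsnRS, 148 bp downstream of the summit. It also kept an overlapping peak of 32.8, with its summit 21 bp upstream of DCTN6-p27. At 45.9 kb brat was long, and its 0.536 candidates per kb were the lowest density of the 8 genes, at percentile 12.9 of coding genes. The Polr1D gene, a subunit gene of RNA polymerases I and III, overlaps the brat start on the other strand, so that signal in this stretch cannot be given to 1 gene.

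The pros gene, which encodes the homeodomain factor that stops ganglion mother cells from self-renewing, is the longest of the 8, at 79.1 kb (chr3R:11328480-11407627, plus strand), and had 70 candidates. Its only own-start peak (chr3R:11372574-11373089) lay 44 bp inside the last of its 4 start sites, deep in the gene, with a signal of 89.5 and a −log10 IDR of 2.76. Replicate 1 had 43.3 there and replicate 2 had 51.7, and only replicate 2 kept it. At the first pros start site the pooled candidate had a signal of 27.7, at the second there was none, and at the third it had 31.6. The other peaks counted to pros belonged by position to neighbours past its 3′ end. The stronger (chr3R:11409829-11410046) had a signal of 261, 82 bp upstream of mgr, a prefoldin gene, with 180 in replicate 1 and 81.8 in replicate 2, both kept. The weaker (chr3R:11407774-11408289) had 97.8, with its summit 114 bp inside mRpL40, a mitochondrial ribosomal protein gene, and 66.5 in replicate 1, which kept it, against 48.9 in replicate 2. It was the only thresholded peak at the 8 genes with more than 1 CAGGTG, of which the nearer began 4 bp before the summit and the other 30 bp after it. Inside pros, the start shared by the nested kinase genes KP78a and KP78b had a candidate of 74.7, which passed the limit only in the replicate-pair list, at a −log10 IDR of 2.07.

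The Numb pair differed from each other. The pon gene (chrX:4636318-4639112, plus strand) had 1 peak (chrX:4636003-4636194) of 218 with a −log10 IDR of 4.61. Its summit lay 228 bp upstream of pon and 86 bp upstream of the divergent Alms1a, a centriole protein gene, so that by distance it counted to Alms1a. Replicate 1 had 114 there and replicate 2 had 106, and both kept it. The numb gene (chr2L:9437469-9464184, plus strand) had 1 peak (chr2L:9459936-9460451) of 129, in a 5′ UTR exon deep in the gene and 10364 bp from the nearest annotated start site. Replicate 1 had 64.8 there and replicate 2 had 56.6, of which only replicate 2 passed the limit. It was the only peak at the 8 genes that was both inside a member and more than 1000 bp from every annotated coding start site. At the numb start sites themselves the strongest pooled candidate, at the second of them, had 49.9 with a −log10 IDR of 1.57.

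Ordered by the strongest pooled candidate at an own start site, the genes ran brat (309), pon (218), pros (89.5), insc (52.8), numb (49.9), pins (23.9) and stau (19.8), with mira at none. Over all coding genes these values stood at percentile 96.5 for brat, 92.3 for pon, 76.6 for pros, 60.7 for insc, 58.8 for numb, 36.8 for pins, 33.0 for stau and 24.2 for mira, which ties there with all genes without such a candidate. The first 5 genes kept this order in each replicate. In replicate 1 they had 174, 114, 43.3, 42.5 and 35.7, and in replicate 2 they had 127, 106, 51.7, 47.9 and 42.7. The step from pon to pros was the widest of these in both replicates, and pins, stau and mira changed places between the replicates. The numb value in replicate 1 was at its first start site, where the pooled list and replicate 2 had no candidate. At the second, which gave the other numb values, replicate 1 had 23.3. The median of the 8 genes was 51.3, against 38.0 over all coding genes, of which 75.8% had a candidate at an own start. These values and percentiles are not adjusted for the number of start sites of a gene.

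**Figure D2:**
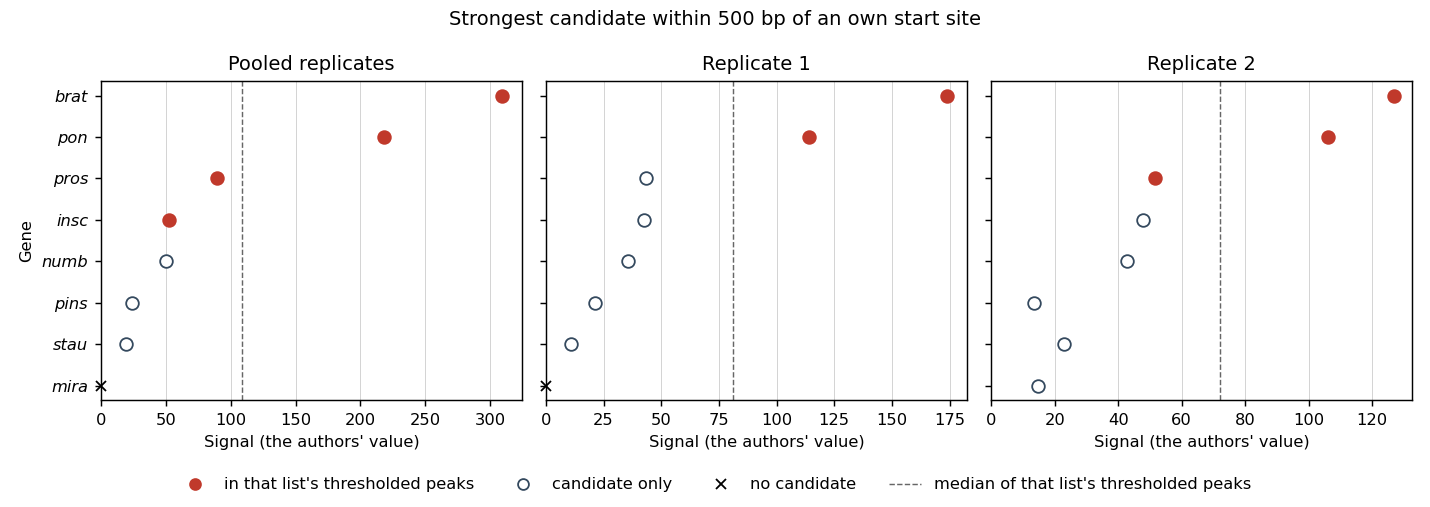
Authors' signal (x axes, linear from 0, each list on its own scale) of the strongest candidate within 500 bp of an own start site of each gene (rows), in the pooled list, replicate 1 and replicate 2. Filled points are in that list's thresholded peaks, open points are candidates only, and a cross marks no candidate; brat and pon lie right of the dashed median of thresholded peaks in all 3 panels.

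**Figure D3:**
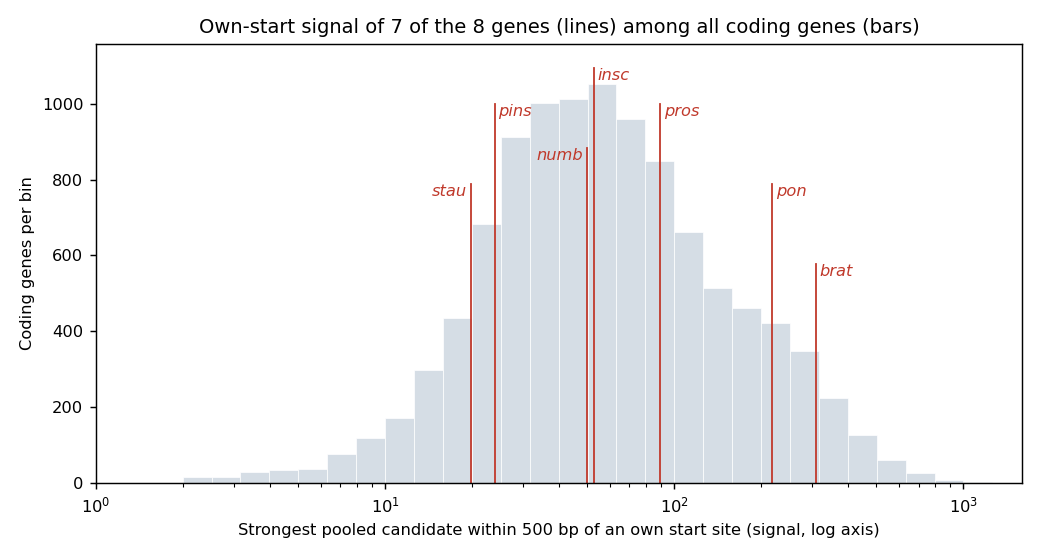
Number of coding genes (y axis) by the signal of their strongest pooled candidate within 500 bp of an own start site (x axis, log scale), with red lines at the values of 7 of the 8 genes. The 3377 genes without such a candidate, mira among them, are not drawn; brat and pon lie in the upper tail and stau and pins below the middle.

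Replicate by replicate, fewer of the genes kept a peak. Replicate 1 had a thresholded peak at 3 of the 8 genes (pros, brat and pon), against 45.0% of coding genes. Replicate 2 had one at 4 of 8 (pros, brat, numb and pon), against 36.7%. Of the 10 pooled peaks, 3 overlapped a thresholded peak of both replicates, namely those upstream of brat, of pon and of mgr, against 44.4% of all pooled peaks. All 10 overlapped some candidate region in each replicate, but the like share over all pooled peaks was not counted. The candidate lists are far longer than the thresholded ones, so this overlap is not read as a trait of the 8 genes. Among the 10 peaks, the 3 found in both were the ones with the highest signal, 309, 261 and 218, and signals of the other 7 ran from 29.4 to 129.

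Counted over all candidates, the medians of the 8 genes lay close to the background, while single genes differed widely in density. Their 231 candidates had a median signal of 23.3, with a range of 2.02 to 309, against a median of 19.6 over all candidates. They lay at a median over the genes of 1.12 per kb of extended span, against 1.01 per kb over all coding genes. By gene this density ran from percentile 12.9 of coding genes at brat to 92.4 at insc. The gene spans differ widely in length, from 2.79 kb for pon to 79.1 kb for pros, against a median of 2.17 kb over all coding genes, and a longer span has more room for a peak.

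The Snail core was about as frequent under candidates of these genes as under all candidates. CAGGTG stood within 100 bp of the summit in 10.4% of the 231 candidates, against 9.98% of all candidates, on either strand. Among the peaks it stood in 2 of 10 (those of mRpL40 and pon), against 6.44% of all peaks; within 50 bp it stood in 1 of 10, against 3.41%, and within 200 bp in 4 of 10, against 13.8%. The extended spans of the genes held 101 CAGGTG sites in 264 kb. Of these, 26 lay within 100 bp of a candidate summit, or 25.7% of the sites, where such windows covered 17.5% of the sequence. Of the 26, 10 were at pros and 5 at pins. The like share over all coding genes was not counted. By gene the density ran from 0.286 sites per kb at brat to 0.665 at pins, against 0.436 over the main arms. CAGGTA stood in 1 of 10 peaks, against 4.60% of all peaks. The broader E-box CANNTG, which includes CAGGTG, stood in 6 of 10, against 62.6%. CGATA stood in 5 of 10, against 55.1%, and the longer TATCGATA, which includes it, in 1 of 10, against 17.7%. GAGAG, a motif of the GAGA factor, stood in 3 of 10, against 29.2%, and GGTCACACT, the motif of M1BP, in 0 of 10, against 3.96%. A match describes letters near a summit and not a bound site.

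Peaks were also counted at a wider set of 36 genes of the same process, sorted into 8 roles. Within 5000 bp, 30 of 36 had a pooled peak (52.7% of coding genes), and 21 of 36 had one at an own start site (27.5% of coding genes), 12 of them in both replicates' lists. Among the 21 the strongest own-start signals had a median of 167 and ran from 58.6 at N, the Notch receptor gene, to 547 at aurA, the mitotic kinase gene that phosphorylates the Par complex. All 4 apical complex genes had a peak within 5000 bp, with own-start signals of 244 at aPKC, where the neighbour ckn was nearer, and 130 at baz. Of 7 spindle orientation genes 4 had an own-start peak, led by loco (428), a regulator of Gαi, and Ggamma1 (356), where MrgBP was nearer. The cortical tumour suppressors dlg1 (231) and l(2)gl (140) had one and scrib did not. Besides aurA, the phosphatase gene Pp4-19C (245) and polo (167) had one, and Cdk1 and mts did not. The phosphatase 4 regulator gene flfl had a candidate of 388 with a −log10 IDR of 5, the highest value, 5 bp upstream of its start, that was not in the thresholded list. The myosin genes jar (250) and zip (209) had an own-start peak and sqh did not. Of the 3 Notch and endocytic partners of Numb, N alone had a peak within 5000 bp. All 3 RNA-binding partners had one at an own start: nanos (454, with CG11779 nearer), mei-P26 (126) and pum (124). Of 7 neuroblast transcription factor genes, 4 had one: esg (178), klu (119), sna (99.9) and wor (86.5). In the same role ase had no candidate at an own start, and among the other roles Cdk1 had none either. These genes were listed by role, but with earlier results of these data known, so the choice was not blind. Several stand next to a neighbour that shares the site, and no test was made between the 36 and the 8. Some of the 36 have long spans, as pum does (chr3R:9066343-9237682), and a longer span has more room for a peak. For the 12 genes with an own-start peak in both replicates' lists, the share over all coding genes was not counted.

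**Figure D4:**
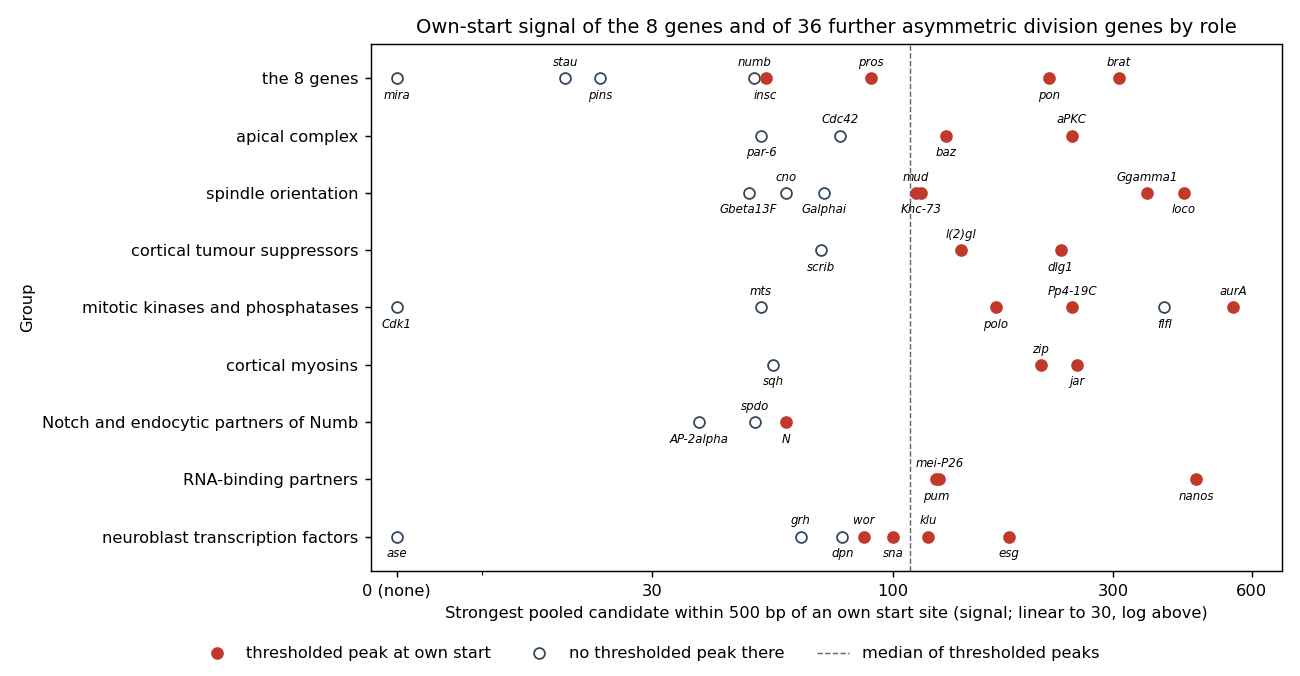
Authors' signal of the strongest pooled candidate within 500 bp of an own start site (x axis, linear to 30 and log above) for the 8 genes and for 36 further genes by role (rows). Filled points have a thresholded peak there and open points do not; aurA (547) lies farthest right, and the open point of flfl (388) lies among the filled ones.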

How the data were processed

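The deposited files are peak lists in narrowPeak layout on dm6, per the labels. The authors made ranked lists of candidate regions and thresholded lists for the pooled replicates, the replicate pair and each replicate; no source used here names the aligner or the peak caller. The signal value of each region is the authors' own and its normalization is unknown. The IDR column holds the authors' −log10 values, and the score column is the deposited score. Of 4222 pooled peaks 4221 lay on the 6 main arms and were used. Ensembl release 115 gave the genes, and NCBI's copy of the same assembly the sequence. Own start sites were annotated starts of coding transcripts, with a window of 500 bp; motifs were searched within 100 bp of summits on both strands; overlap was 1 bp or more. Named were all members, their peaks and strongest candidates, and genes of the wider set by signal within each role; neighbours, flfl, Cdk1, ase and other genes without a peak were named after their values were seen. The gene listed as nos is nanos in the annotation. The members and lists were chosen with earlier results of these data known. Counting was tested on simulated data. Scripts used Python 3.11.15, pandas 2.3.3, numpy 2.4.6 and matplotlib 3.10.9.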

Additional observations from a re-analysis of the deposited data

How the results depend on the processing

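Other settings were 0, 2000 and 10000 bp around the genes, 250 and 1000 bp at start sites, 50 and 200 bp for motifs, each replicate's own list, the replicate-pair list, peaks above the median signal, the nearest start site and other overlap rules; candidates at an IDR of 0.01 were added after seeing the data. Of the main counts, 25 stayed within 1.5 times the reported value and 10 did not. Leaving out a replicate gave 3 to 4 genes with a peak, 5 to 8 peaks at the genes and 2 to 3 genes with an own-start peak. Candidates at the genes were 133 to 236, and all these low ends came without replicate 2. The candidate lists differ in length, with 46847 regions on the main arms in replicate 1 and 102292 in replicate 2. The candidate counts at the genes are therefore not compared between the replicates. With peaks above the median signal 5 peaks and 2 genes with an own-start peak were left. Within the gene spans alone there were 5 peaks and 141 candidates, and counted to the nearest start site 6 peaks. The like counts over all coding genes within their spans alone were not made, so these are not set beside the background at 5000 bp. With any candidate region as overlap, 10 peaks were in both replicates, and the like share over all pooled peaks was not counted. Of the motif counts, 7 moved and 7 did not. The insc peaks overlap, so the 10 peaks are 9 sites. No paired analysis was possible because there is 1 group. Depth is unknown and 2 replicates limit the precision.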
